A study of Mus musculus with 9 samples.

Results

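The Schlafen genes of mouse neutrophils were examined as a family, which was chosen by the measured genotype contrast of one member, Slfn4, which had one of the smallest p-values in this series. The family was named by gene symbol: of the 7 genes Slfn1, Slfn2, Slfn3, Slfn4, Slfn5, Slfn8 and Slfn9, the deposited table lists 5 among its 7197 genes, and Slfn3 and Slfn9 have no row. Neutrophils had been sorted from the bone marrow of mice aged 2 months as cells positive for CD45, CD11b and Ly6G, and their polyadenylated RNA was sequenced from the 3′ end. The 5 control libraries came from Rragc+/+ animals, whose label reads RagC S74N (+/+), and the 4 mutant libraries from RragcS74N/+ animals. Mutant animals carry, in every cell of the body, 1 allele of Rragc edited in the germline to encode an active form of the GTPase RagC, which acts between nutrient sensors and the kinase complex mTORC1, beside 1 unedited allele. No other allele, agent or treatment is given for either genotype, the strain is C57BL/6 per the study, and GEO's labels give neither sex nor sequencing batch.

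Schlafen proteins share a conserved amino-terminal domain, and the longer ones carry in addition a helicase-like part. Several are induced by type I interferon, and the family is known from lymphocytes and myeloid cells, where members restrain proliferation, act on transfer RNA and limit virus replication. Slfn1 and Slfn2 encode short proteins, Slfn3 and Slfn4 intermediate ones, and Slfn5, Slfn8 and Slfn9 long ones. Slfn2 is needed for quiescence of T cells, and Slfn4 is known as an interferon- and Toll-like-receptor-induced gene of macrophages and other myeloid cells.

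The genes lie side by side. In RefSeq on assembly GRCm38.p6, which is not the assembly of the reads, 9 Schlafen genes and pseudogenes span 335 kb of chromosome 11, at chr11:82951349-83286726. In that order they are Slfn5, Slfn9, Slfn8, the pseudogene Slfn10-ps, Slfn2, Slfn1, Slfn4, Slfn3 and Slfn14. Slfn10-ps and Slfn14, and the more distant relative Slfnl1 on chromosome 4, have no row in the table either. The sequences before their transcription starts are shown because 2 kinds of shared letters were found among the 5 listed genes. The 3 genes with the most transcript, Slfn2, Slfn1 and Slfn4, share a run of 11 bases within their last 100 bases before the start, printed in capitals and read on the transcribed strand in these windows of 60 bases:

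Slfn1, chr11:83116721-83116780, plus strand: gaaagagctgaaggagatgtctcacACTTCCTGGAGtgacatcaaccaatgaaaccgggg

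Slfn2, chr11:83065032-83065091, plus strand: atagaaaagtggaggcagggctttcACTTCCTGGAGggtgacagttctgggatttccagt

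Slfn4, chr11:83175088-83175147, plus strand: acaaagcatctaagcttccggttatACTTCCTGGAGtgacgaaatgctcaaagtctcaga

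The run ends 64 bases before the start in Slfn1, 45 in Slfn2 and 63 in Slfn4. Slfn1 and Slfn4 share 15 bases there, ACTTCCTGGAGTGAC, which no other start site of the table holds. The run of 11 bases was found on either strand in 20 of 32851 start sites with 250 bases of upstream sequence, or 0.0609%. It was looked for after the sequences had been read, and it contains the letters AGGAAGT on the opposite strand, a site of ETS factors such as PU.1, which 7.69% of all start sites hold and 4 of the 10 Schlafen start sites, those of Slfn1, Slfn2, Slfn4 and the unlisted Slfn3. Slfn5 and Slfn8 hold instead the core letters of the interferon-stimulated response element, GAAA followed after any 2 bases by GAAA, on either strand. The Slfn5 start site used here lies inside the gene, which begins at position 82951349, so its window is inside the gene too. Bases before that position were not searched. The letters, in capitals here, lie 146 and 39 bases before the start sites used:

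Slfn5, chr11:82951922-82951981, plus strand: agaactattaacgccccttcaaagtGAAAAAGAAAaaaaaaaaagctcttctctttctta

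Slfn8, chr11:83020824-83020883, minus strand: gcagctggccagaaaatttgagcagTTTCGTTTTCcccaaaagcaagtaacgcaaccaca

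Those letters were in 2.98% of all start sites, or 3.46% of 27025 genes. They were in 4 of the 10 Schlafen start sites, which belong to Slfn5, Slfn8 (with 2 start sites) and Slfn9. The bases before the 2 Slfn8 start sites overlap and hold the same match, which was counted for both. No exact match was found in the 250 bases before Slfn1, Slfn2 or Slfn4, and letters with a mismatch to the core were not searched for. A gamma-activated site (TTCNNNGAA, its own reverse complement) was in 7.02% of all start sites and an E-box (CACGTG) in 6.02%, and neither was in any of the 10 Schlafen start sites. A match of letters is not a measured binding site, and a missing match concerns these windows only.

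Schlafen transcripts ranged from abundant to scarce. Values are normalized counts, which are gene read counts divided by 1 size factor per library. Since reads were primed at the poly(A) tail, they count transcript ends and were not divided by gene length. Averaged over the 9 libraries, Slfn2 was at 1347 normalized counts (place 125 of 7197 genes), Slfn1 at 887 (place 222), Slfn4 at 345 (place 700), Slfn5 at 218 (place 1137) and Slfn8 at 32.4 (place 4358). Slfn2 exceeded Slfn1 in 9 of 9 libraries, by a ratio between 1.13 and 1.97. Slfn1 exceeded Slfn4 in 9 of 9, and Slfn5 exceeded Slfn8 in 9 of 9, by at least 4.09. The order of Slfn4 and Slfn5 was less fixed, with Slfn4 higher in 8 of 9 libraries and a ratio between 0.795 and 2.66.

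Reads behind these values limited Slfn8 most, with 27 to 73 reads per library. Its counting error alone came to 19.2% in the library where it had the fewest reads, against, by the same measure, 7.33% for Slfn4, 7.96% for Slfn5, 3.71% for Slfn1 and 2.96% for Slfn2. Paralogues can share reads. In GENCODE M21 transcripts, 25.5% of the windows of 50 bases from the last 500 bases of Slfn8 were found exactly in another Schlafen transcript, most of them in Slfn10-ps, so the Slfn8 value is uncertain. For Slfn1, Slfn2, Slfn4 and Slfn5 the share was 0%. In the other direction, 12.5% of the end windows of Slfn3 were found exactly in a Slfn4 transcript, so reads from there match both genes. How such reads were counted was not examined, and any effect on the Slfn4 value was not tested.

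Slfn4 was higher in mutant neutrophils, and this difference chose the family, so it is given as a description without a test. In Rragc+/+ replicates 1 to 5 it measured 282, 217, 277, 203 and 298 normalized counts. In RragcS74N/+ replicates 1 to 4 it measured 595, 430.0, 268 and 533. The mutant libraries 1, 2 and 4 lay above every control library, while replicate 3 lay inside the control range, so the genotypes overlapped. Control libraries averaged 255 ± 42.5 (SD, n = 5) and mutant libraries 456 ± 143 (SD, n = 4), a ratio of 1.79. On the log2(value + 1) scale the difference was 0.79 with a standard error of 0.23, and 80 of the 6673 genes tested had a higher one. By p-value it was at place 9 of 6673 and at place 3 among genes higher in the mutant. The coefficient of variation was 16.6% in control and 31.3% in mutant libraries. The difference ran from 0.64 without RragcS74N/+ replicate 1 to 1.02 without RragcS74N/+ replicate 3.

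**Figure D1:**
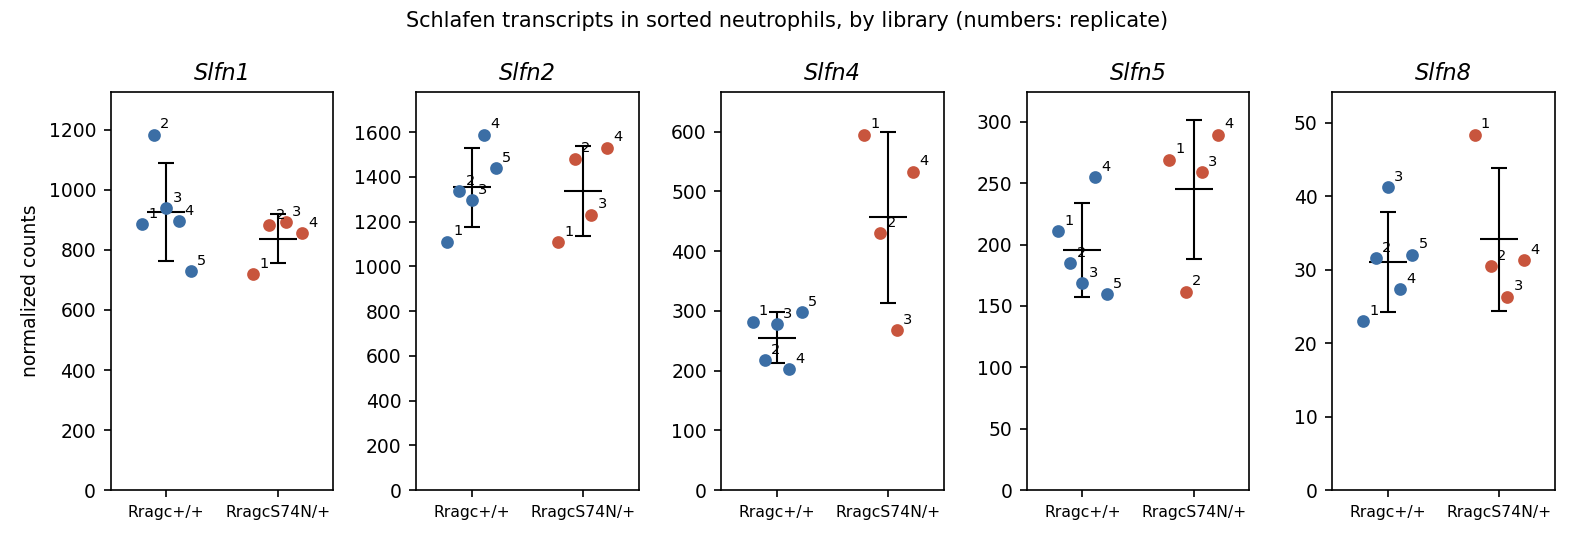
Normalized counts of the 5 listed Schlafen genes in each library, with Rragc+/+ in blue and RragcS74N/+ in red. Numbers beside points are replicates, the long bar is the mean and the whiskers are ± SD (n = 5 and n = 4), and each panel has its own axis from 0. For Slfn4, mutant replicates 1, 2 and 4 sit above the highest control at 298, and for Slfn1 and Slfn2 the genotypes lie over each other.

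The relatives of Slfn4 were then tested for a genotype difference with limma, fitted over the 6673 genes that averaged 10 normalized counts or more. Of the 4 relatives, 0 passed a Benjamini-Hochberg adjusted p-value of 0.05, and 0 fell under 0.05 before adjustment, or 1 (Slfn5) without RragcS74N/+ replicate 2. Among all genes tested 0, or 0%, passed the adjusted threshold, and 388, or 5.81%, fell under 0.05 before adjustment, a number that single libraries moved. It was 641 and 907 without Rragc+/+ replicates 1 and 5, 224 to 256 without Rragc+/+ replicate 3 or RragcS74N/+ replicate 2 or 4, and lower still without Rragc+/+ replicate 2. By the count tests on recovered reads, edgeR gave 460 genes and DESeq2 447 at an unadjusted p-value under 0.05, and each called 0 after adjustment. The relatives were named by symbol and not by their values, but they were measured in the same libraries and the same contrast as Slfn4, so their tests are not independent of the choice.

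Slfn5, a long family member induced by interferon, came nearest to the direction of Slfn4. It measured 211, 185, 169, 255 and 159 normalized counts in Rragc+/+ replicates 1 to 5. In RragcS74N/+ replicates 1 to 4 it measured 269, 162, 259 and 289. Replicates 1, 3 and 4 of the mutant lay above every control, and replicate 2 lay near the lowest control. At least 3 of 4 mutant libraries above every control was found for 3.91% of genes tested, Slfn4 and Slfn5 among them. The mean was 196 ± 38.4 (SD, n = 5) and 245 ± 56.9 (SD, n = 4), with a log2 difference of 0.31 (95% confidence interval -0.14 to 0.75, limma adjusted p = 0.719). Without RragcS74N/+ replicate 2 it was 0.50 (limma adjusted p = 0.823, under 0.05 before adjustment), and with array quality weights it was 0.15. The mutant library that lacked the higher level was replicate 3 for Slfn4 and replicate 2 for Slfn5, so the libraries high for one gene were not all high for the other.

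Slfn1 and Slfn2, the short and abundant members, had differences with a negative sign, neither past the threshold. Slfn1 measured 885, 1184, 938, 896 and 729.9 normalized counts in Rragc+/+ replicates 1 to 5 and 719, 883, 892 and 857 in RragcS74N/+ replicates 1 to 4. The mutant values lay within or just under the control range. Control libraries averaged 927 ± 164 (SD, n = 5), mutant libraries 838 ± 80.7 (SD, n = 4). The log2 difference was -0.13 (95% confidence interval -0.49 to 0.22, limma adjusted p = 0.805), or -0.04 without Rragc+/+ replicate 2, the highest library, -0.06 without RragcS74N/+ replicate 1, -0.21 without Rragc+/+ replicate 5 and -0.08 with array quality weights.

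Slfn2 measured 1111, 1336, 1297, 1588 and 1439 normalized counts in Rragc+/+ replicates 1 to 5. In RragcS74N/+ replicates 1 to 4 it measured 1107, 1481, 1231 and 1530.0. Both genotypes covered nearly the same range, with means of 1354 ± 177 (SD, n = 5) and 1337 ± 202 (SD, n = 4). The log2 difference was -0.02 (95% confidence interval -0.37 to 0.33, limma adjusted p = 0.976), the smallest of the family, and its sign depended on single libraries.

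Slfn8, the scarcest listed member, measured 23.1, 31.5, 41.2, 27.3 and 32.1 normalized counts in Rragc+/+ replicates 1 to 5. In RragcS74N/+ replicates 1 to 4 it measured 48.4, 30.5, 26.4 and 31.4. Replicate 1 of the mutant was above every control and the other 3 were inside the control range. The means were 31.1 ± 6.76 (SD, n = 5) and 34.2 ± 9.75 (SD, n = 4), and the log2 difference was 0.12 (95% confidence interval -0.38 to 0.62, limma adjusted p = 0.877). Without RragcS74N/+ replicate 1 it was -0.05. Of the 4 relatives, 2 had a positive difference, Slfn5 and Slfn8, where 53.4% of all genes tested had one and the median over all genes was 0.02. Whether the relatives differed from Slfn4 in their response was not tested.

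**Figure D2:**
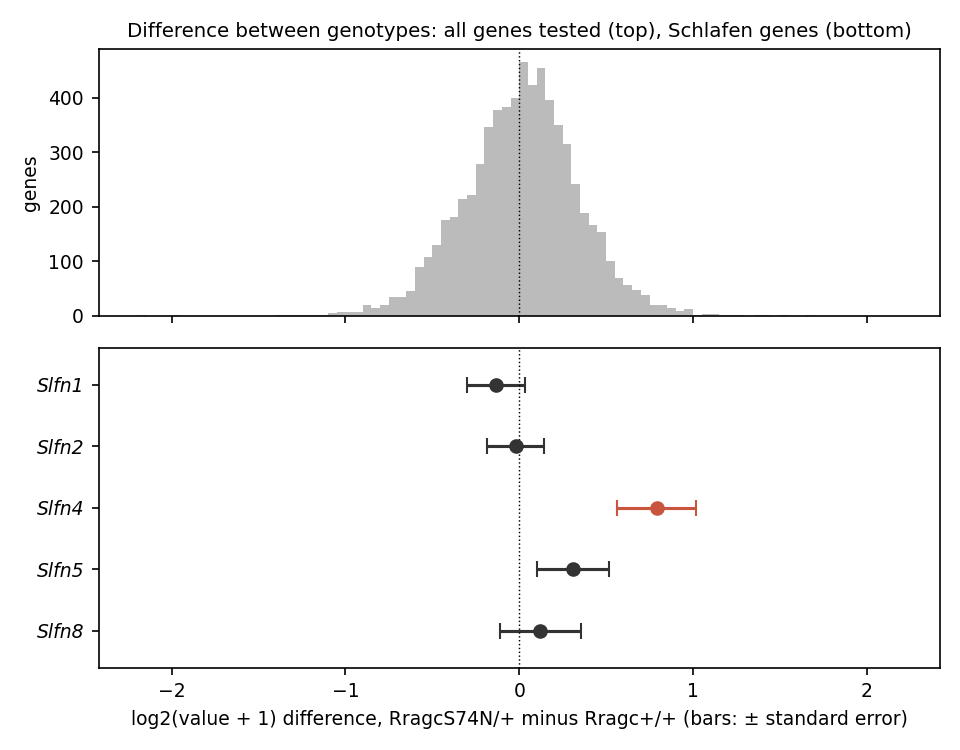
Top, distribution of the log2(value + 1) difference, RragcS74N/+ minus Rragc+/+, over the 6673 genes tested (bins of 0.05). Bottom, the same difference for the 5 Schlafen genes with its standard error in limma, where Slfn4 (red, the gene that chose the family) stands at 0.79 and the other 4 lie between -0.13 and 0.31.

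Most of the summed level of the 5 genes came from Slfn2 and Slfn1, and the sums of the genotypes overlapped. Control libraries summed to 2763 ± 196 normalized counts (SD, n = 5), mutant libraries to 2910 ± 258 (SD, n = 4), with ranges of 2512 to 2969 and 2676 to 3241. Slfn2 made up 48.9% ± 4.62 (SD, n = 5) of this sum in control and 45.8% ± 3.89 (SD, n = 4) in mutant libraries. Slfn1 made up 33.5% ± 4.87 (SD, n = 5) and 28.9% ± 3.32 (SD, n = 4). The share of Slfn4 was 9.36% ± 2.12 (SD, n = 5) and 15.6% ± 4.86 (SD, n = 4), up to 21.7% over the mutant libraries. The lowest mutant share, in replicate 3, lay inside the control range, whose highest value was 11.2%.

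Genes next to the cluster were read in the same fit, to see the Slfn4 difference beside its neighbourhood. The 3 nearest listed genes on each side were Lig3, Rffl and Rad51d before the cluster and Ap2b1, 1700020L24Rik and Taf15 after it. Their log2 differences ran from -0.31 for Rad51d to 0.62 for Rffl, with limma adjusted p-values of at least 0.729, and 0 of 6 fell under 0.05 before adjustment. Within the cluster, Slfn1 is the nearest listed gene before Slfn4 and AI662270, a non-coding transcript, the nearest after it, with differences of -0.13 and 0.22 (limma adjusted p = 0.805 and 0.747). Gm20234, named after its values were seen, is an antisense transcript over Slfn2, and it went from 34.4 ± 15.9 (SD, n = 5) to 19.1 ± 4.76 normalized counts (SD, n = 4). Its log2 difference was -0.74 with a limma adjusted p-value of 0.713, so it did not pass the correction. Reads were counted by strand, and Gm20234 and Slfn2 lie on opposite strands in GENCODE M21. Whether reads of the far more abundant Slfn2 were counted for Gm20234 was not tested.

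**Figure D3:**
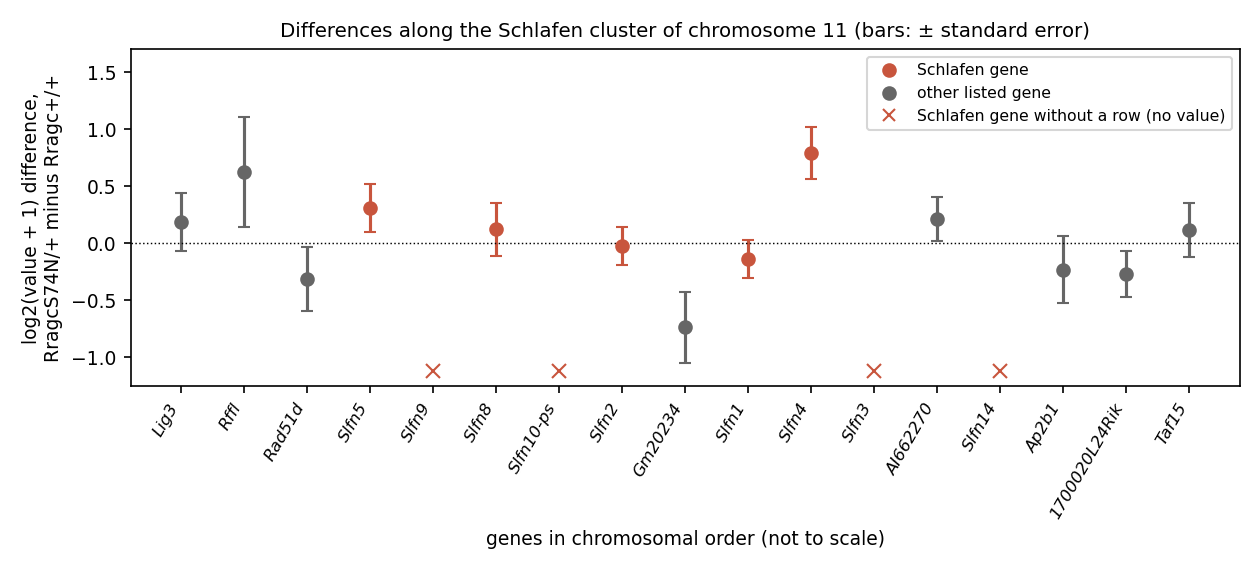
Log2(value + 1) difference, RragcS74N/+ minus Rragc+/+, with its standard error in limma, for the listed genes of the Schlafen cluster and the 3 listed genes on each side, in chromosomal order and not to scale. Crosses at the bottom mark Schlafen genes without a row and carry no value. Slfn4 at 0.79 stands between Slfn1 at -0.13 and AI662270 at 0.22.

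Whether Schlafen genes varied together from animal to animal was tested after each genotype's mean had been removed, which leaves out the contrast that chose the family. Over the 10 pairs and 9 libraries, 0 pairs passed an adjusted p-value of 0.05 (exact permutation test within genotypes, two-sided, 2880 permutations), and 0 fell under 0.05 before adjustment. The strongest relations were with Slfn4. Slfn4 and Slfn8 had Pearson's r = 0.56 and Spearman's rho = 0.55 (exact permutation p = 0.180 and p = 0.153, adjusted p = 0.901 and p = 0.764). Slfn1 and Slfn4 had r = -0.54 and rho = -0.63 (exact permutation p = 0.0965 and p = 0.0649, adjusted p = 0.901 and p = 0.649). Correlations were also computed without the 2 libraries farthest from the first gene's median, found before genotype means were removed. For pairs with Slfn4 first, these were RragcS74N/+ replicates 1 and 4, where Slfn4 was highest. That choice follows the contrast that chose the family, and of the mutant libraries it leaves only replicates 2 and 3. By this measure r was 0.28 for Slfn4 with Slfn8 and -0.33 for Slfn1 with Slfn4, both nearer 0 with the sign kept. Slfn4 and Slfn5 had r = -0.11 and rho = 0.10 (exact permutation p = 0.822 and p = 0.841, adjusted p = 0.915 and p = 0.934), and r = -0.83 without RragcS74N/+ replicates 1 and 4. Slfn2 and Slfn4 had r = -0.16 and rho = -0.18 (exact permutation p = 0.764 and p = 0.663, adjusted p = 0.915 and p = 0.934), and r = 0.43 without replicate 1 of each genotype. The other 6 pairs had r between -0.26 and 0.12. All values share library and scaling.

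**Figure D4:**
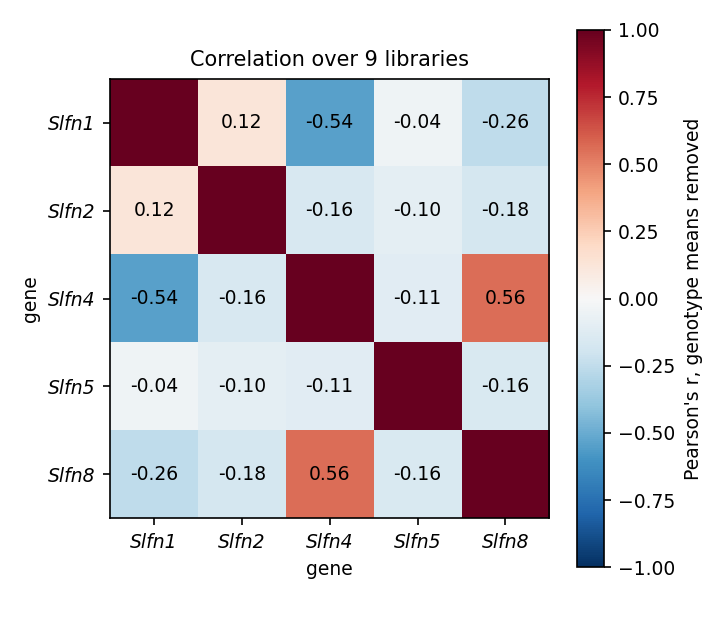
Pearson's r between the 5 Schlafen genes over 9 libraries on the log2(value + 1) scale with genotype means removed. Colour runs from blue (-1) to red (1) and the diagonal is each gene with itself. The 2 darkest pairs are Slfn4 with Slfn8 (0.56) and Slfn1 with Slfn4 (-0.54), neither past the threshold.

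Among the 3471 other genes with a mean of at least 50, those whose genotype-centred pattern over 9 libraries was most like each member's are named as a description. For Slfn4 they were Stk17b (r = 0.93), a kinase gene, Tmem243 (r = 0.90) and Il1b (r = 0.88), which encodes interleukin 1 beta. Stk17b had a log2 difference between genotypes of 0.22 and Il1b one of 0.05. For Slfn1 they were Eif2ak1 (r = 0.99), Sys1 (r = 0.98) and the interferon-induced Ifitm3 (r = 0.98), and for Slfn2 Nfyb (r = 0.96), Gtf3c6 (r = 0.95) and Pja2 (r = 0.93). For Slfn5 they were Anxa7 (r = 0.93), Golga2 (r = 0.91) and Ikbkb (r = 0.86), and for Slfn8 Phip (r = 0.96), Erbin (r = 0.96) and 9930021J03Rik (r = 0.90). No gene was named for more than 1 member. Each was picked as the highest of 3471 values of r, so none was tested.

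Schlafens being interferon-responsive, a list of 78 other interferon-stimulated genes was read beside them. Of these, 55 were listed and tested, 32 with a positive and 23 with a negative difference, and 0 passed the adjusted threshold. The median log2 difference was 0.07, beside 0.02 over all genes. Before adjustment, 4 genes, or 7.27%, were higher with a p-value under 0.05, where 2.01% of all genes tested were higher by that rule, and 0 lower ones, where 3.81% of all genes were. The 4 were Xaf1, Irgm2, Ifi204 and Ifi27. The number of list genes under 0.05 was 1 without RragcS74N/+ replicate 4 and 2 without Rragc+/+ replicate 3. Over all genes that number was 224 in each of these 2 fits, against 388 in the main fit. It was 7 list genes each with edgeR, DESeq2 and array quality weights, which gave 460, 447 and 769 over all genes.

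Xaf1, which encodes an inhibitor of an anti-apoptotic protein, was at 11.4 ± 2.26 normalized counts (SD, n = 5) and 22.1 ± 8.32 (SD, n = 4). Its genotypes did not overlap, which held for 0.674% of genes tested in the higher direction. Its log2 difference was 0.85 (limma adjusted p = 0.713). Irgm2, an interferon-induced GTPase gene, was at 27.8 ± 12.4 (SD, n = 5) and 44.1 ± 6.99 (SD, n = 4), a log2 difference of 0.73. Ifi204, a DNA sensor gene, and Ifi27 had differences of 0.51 and 0.50. Each of the last 3 had a limma adjusted p-value of 0.713, and the genotypes overlapped for each.

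Classical members of the response pointed in no single direction. Isg15, a ubiquitin-like modifier, had a log2 difference of 0.41 and Ifit1, which binds foreign RNA, one of 0.48, while Ifit3 had -0.12 and Irf7, the transcription factor that amplifies interferon production, -0.19. Their limma adjusted p-values were at least 0.713. Ifit1 was spread from 66.1 to 220.5 normalized counts over the mutant libraries, on both sides of the control range of 82.3 to 100.3.

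**Figure D5:**
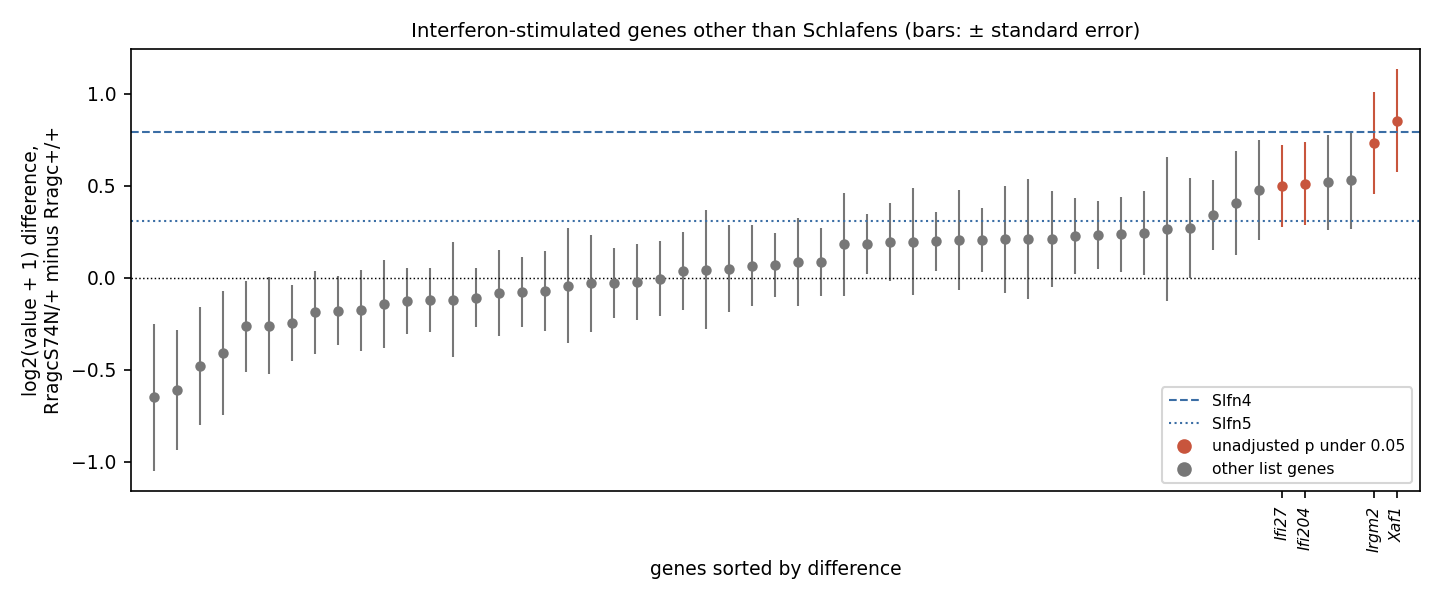
Log2(value + 1) difference, RragcS74N/+ minus Rragc+/+, with its standard error in limma, for the 55 tested interferon-stimulated genes other than Schlafens, sorted by difference. Red points, the ones labelled by gene, have an unadjusted p-value under 0.05. The dashed and dotted lines mark Slfn4 at 0.79 and Slfn5 at 0.31, and 32 of the 55 genes lie above 0.

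Upstream of these genes, 17 of 18 genes of interferon receptors and signalling were listed and 16 were tested. Of the 16, 0 passed either threshold, 9 differences were positive and the median was 0.01. The receptor subunit Ifnar1 had a log2 difference of 0.18 and Ifnar2 one of -0.08. Of the factors that carry the signal to interferon-response elements, Stat2 had a difference of 0.24 and Irf9 one of -0.03. Each of these 4 genes had a limma adjusted p-value of at least 0.753. Stat2 and Irf9 also belong to the list of interferon-stimulated genes. The count at an unadjusted p-value under 0.05 was 2 without Rragc+/+ replicate 1. Over all genes that count was 641 in this fit, against 388, or 5.81%, in the main fit.

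Maturation and proliferation lists were read because several Schlafen genes follow growth and differentiation of blood cells. Of 12 secondary and tertiary granule genes, 0 fell under 0.05 before adjustment, with a median log2 difference of -0.05. Of 16 mature neutrophil genes there were 0 as well, with a median of 0.0016. Of 13 tested cell cycle genes there was 1, the tubulin gene Tubb4b, lower at a log2 difference of -0.62 (limma adjusted p = 0.713), and the median of the list was 0.04. Over all genes tested, 388, or 5.81%, fell under 0.05 before adjustment. Single libraries moved these counts, and the count over all genes with them. Without Rragc+/+ replicate 1 there were 1 granule, 1 mature neutrophil and 2 cell cycle genes, and 641 over all genes. Without Rragc+/+ replicate 5 there were 3 granule and 3 cell cycle genes, and 907 over all genes.

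The identity of the sorted cells was checked last. All 11 neutrophil markers were listed, with Ly6g at 2639 ± 396 (SD, n = 5) and 2798 ± 891 normalized counts (SD, n = 4), and 0 fell under 0.05 before adjustment. Rragc itself had a log2 difference of -0.11, Itgam of -0.09 and Ptprc of -0.16 (limma adjusted p of at least 0.781), and the edit changes coding sequence that such a count cannot show. In bulk samples, fewer cells of a type and less RNA per cell cannot be told apart. Monocytes and macrophages can also express Slfn4, and of their 10 markers 3 were listed, Csf1r, Cd68 and Adgre1, all with negative differences (-0.66, -0.54 and -0.29). Their summed level was 190 to 555 normalized counts in Rragc+/+ and 166 to 249 in RragcS74N/+. The 555 came from Rragc+/+ replicate 2 alone, also the highest library for Slfn1, and the next control was replicate 3 at 330. Among the monocyte markers without a row were Ccr2, Ly86 and F13a1.

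Most erythroid markers had lower means in RragcS74N/+, and none passed the adjusted threshold. Of 8 markers 7 were listed and 6 tested, 5 of them lower at an unadjusted p-value under 0.05, where 3.81% of all genes tested were. Among these 5 were the alpha globin genes Hba-a1 and Hba-a2 at -1.96 and -1.99, the beta globin gene Hbb-bs at -1.23 and the haem synthesis gene Alas2 at -2.16 (limma adjusted p = 0.713 for each). The sixth marker tested, the carbonic anhydrase gene Car2, had a difference of 0.58 (limma adjusted p = 0.813). The summed level was 1091 to 5609 normalized counts in Rragc+/+ and 379 to 2158 in RragcS74N/+. Of 10 eosinophil and basophil markers 4 were listed and 3 tested, with log2 differences of 1.38 for Prg2, 1.10 for Epx and -0.14 for Siglecf (limma adjusted p = 0.713, 0.724 and 0.860). Prg2 alone was higher at an unadjusted p-value under 0.05, as 2.01% of all genes were, and the list had sums of up to 136 in Rragc+/+ and 218 in RragcS74N/+. B cell markers (2 of 9 listed) and T and NK cell markers (1 of 9) were few, and 0 of 5 platelet and 0 of 5 primary granule markers were listed. The part of monocyte, erythroid or eosinophil RNA in the differences of Slfn4 and its relatives was not tested.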

How the data were processed

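Sorted bone marrow neutrophils were profiled with 3′-end libraries holding unique molecular identifiers. According to the study's methods and the submitters' processing notes, reads were aligned to GRCm39 with TopHat2 and counted by strand with HTSeq on GENCODE annotation. Whether identifiers were collapsed, and how the listed genes were filtered, is not given in the sources used here. The deposited values are a signal, gene read counts that the authors divided by 1 size factor per library. Every value (100%, tolerance 0.01) was a whole multiple of 1 read, which gave 1214295 to 1973957 reads per library over the listed genes, and 0 columns lacked a sample. In 1 library a read is worth almost 1, and its reads were recovered from values that are not rounded. Counting errors assume independent reads. Replicates of a genotype differed beyond sampling noise (chi-square per degree of freedom at least 5.47 over 16 pairs). The limma p-values set the genotype difference against the spread between these libraries, moderated over all genes tested.

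Values were transformed as log2(value + 1), which understates changes of low genes. The limma package (version 3.58.1, under R 4.3.3) was fitted to genes averaging 10 or more, with trended moderation, genotype as the sole term and Benjamini-Hochberg adjustment over all 6673 genes at 0.05. The study used a count model. Because the deposited values are counts already divided by size factors, limma was chosen as the main test here. Recovered reads were given to DESeq2 (version 1.42.0) and to edgeR (version 4.0.16) as alternatives. Other alternatives were another pseudocount, filter, scaling and moderation, array quality weights and the removal of each library. Correlations used exact permutation within genotypes.

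The members and lists were chosen with earlier results of these data known. Genes named are the listed Schlafen genes, the 3 genes most like each in pattern, up to 4 genes per list with the smallest unadjusted p-value under 0.05, a few interferon genes, the 3 listed neighbours on each side of the cluster, Rragc and genes of the sort. Sequences and gene order are from RefSeq on GRCm38.p6, and 3′ ends and strands from GENCODE M21 on GRCm38. Start sites were found for 9 of the 10 Schlafen genes looked up. The value of 1 gene of the interferon lists is not reported here.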

Additional observations from a re-analysis of the deposited data

Results flagged for a closer look

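Single libraries standing apart within a genotype were looked for over part of the genes named, in 62 groups of values. In these 3 were found, where chance alone flags about 5% of groups. None was a Schlafen gene. Irf7 was high in Rragc+/+ replicate 2, at 121.5 normalized counts against 60.6 to 75.0 in the others, a gap of 0.764 of the range. Xaf1 was high in RragcS74N/+ replicate 4, at 34.5 against 16.6 to 19.3, a gap of 0.847 of the range. Prg2 was high in Rragc+/+ replicate 5, at 80.2 against 11.2 to 23.3, a gap of 0.825 of the range.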

How the results depend on the processing

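Over 18 alternatives, 0 of the Slfn4 relatives tested and 0 genes of the table passed the adjusted threshold (with a mean of at least 50, Slfn8 was not tested). The differences of Slfn5 and Slfn1 kept their sign. So did that of Slfn4, but this contrast in these libraries chose the gene, so its kept sign is a description only. With single libraries left out, Slfn4 ran from 0.64 to 1.02, Slfn5 from 0.22 to 0.50 and Slfn1 from -0.21 to -0.04. Array quality weights gave 0.15 for Slfn5 and -0.08 for Slfn1. Slfn5 had an unadjusted p-value under 0.05 without RragcS74N/+ replicate 2, and an adjusted one of 0.823 in limma. Signs turned for Slfn8, at -0.034 with array quality weights and from -0.055 to 0.23 with single libraries left out, and for Slfn2, from -0.090 to 0.066 with single libraries left out. Where a value turned or moved, the cause was not tested.

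The number of interferon-stimulated genes with an unadjusted p-value under 0.05, 4 in the report, was 2 with a mean of at least 50, 2 without the mean trend, and 7 each with array quality weights, edgeR and DESeq2. With single libraries left out it ran from 1 to 6, that of interferon receptors and signalling from 0 to 2, granule genes from 0 to 3, mature neutrophil genes from 0 to 1 and cell cycle genes from 1 to 3. Array quality weights gave 1 granule gene and 3 cell cycle genes. Over all genes the number was 191 with a mean of at least 50 and 769 with array quality weights.

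Of the correlations, 0 passed in any of 11 alternatives. With columns rescaled to the same total, the sign turned for Slfn1 with Slfn2 (-0.086), Slfn1 with Slfn5 (0.20), Slfn2 with Slfn5 (0.10), Slfn4 with Slfn5 (0.0048) and Slfn5 with Slfn8 (0.079). With single libraries left out, r ran from -0.17 to 0.34 for Slfn1 with Slfn2, from -0.39 to 0.13 for Slfn1 with Slfn5 and from -0.45 to 0.085 for Slfn1 with Slfn8. It ran from -0.59 to 0.17 for Slfn2 with Slfn4, from -0.48 to 0.27 for Slfn2 with Slfn5, from -0.64 to 0.35 for Slfn2 with Slfn8 and from -0.28 to 0.088 for Slfn4 with Slfn5. Slfn1 with Slfn4 stayed negative and Slfn4 with Slfn8 positive, and the former was -0.66 with columns rescaled to the same total (exact permutation, adjusted p = 0.177).

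No paired analysis was possible because libraries carry no number shared across genotypes. Slfn8, with 27 to 73 reads per library, is limited most by depth.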

Other observations

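Slfn8 and its neighbour Slfn9, which has no row in the table, share a run of 20 bases before their starts, tctggcagcatgcctgcagc, found in 3 of 32851 start sites, all of them Slfn8 or Slfn9. In their last 500 bases, 25.5% of Slfn8 and 15.8% of Slfn9 windows of 50 bases were found in another Schlafen transcript.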
